A study of Mus musculus with 34 samples.

Results

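The plantaris of 24-month-old female mice was compared between animals that had run a weighted wheel and sedentary animals of the same age. The 9 libraries were chosen by their source name, plantaris, and by their age label, out of 34 in the series: 4 from mice after 8 weeks of PoWeR (numbered 10, 12, 14 and 15) and 5 from sedentary mice (numbered 12 to 16). PoWeR stands for progressive weighted wheel running: the mouse runs of its own accord, and the load on the wheel is increased over the weeks. PoWeR mice were taken after a 24 h wheel lock, and all mice after an overnight fast. The labels give no strain or genotype, and they name the group and the age but not the animal behind each library, so the p-values measure the spread between these libraries, which may be technical. The titles of these libraries say soleus while the source name and the column names point to plantaris.

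The plantaris is a fast ankle extensor of the calf, built mainly of IIb and IIx fibres, which carry the myosin heavy chains Myh4 and Myh1 and depend largely on glycogen and glycolysis. Repeated loading and running are known to enlarge its fibres, to move myosin expression toward more oxidative types, to add mitochondria and to add capillaries, which are tubes of endothelial cells wrapped by pericytes. Endothelial cells hold together through adherens and tight junctions, in which scaffold proteins tie transmembrane adhesion molecules to the cytoskeleton.

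Myosin genes separated the aged plantaris from the soleus, the slow neighbour. Levels below are CPM, expected counts divided by a library total adjusted by its TMM factor and scaled to a common size. Myh4, the IIb heavy chain, stood at 13203 to 50396 CPM in PoWeR and 43969 to 71464 CPM in sedentary plantaris, against 14.4 to 1649 CPM in the 9 aged soleus libraries. Myh7, the slow heavy chain, stood at 297 to 1714 CPM in PoWeR and 58.2 to 964 CPM in sedentary plantaris, against 20978 to 31063 CPM in aged soleus. The source name therefore matched the fibre genes and the title did not. The 8 libraries of 6-month mice that are labelled plantaris held Myh7 at 19499 to 31961 CPM and Myh4 at 14 to 40.5 CPM, so their myosin genes went against their label. In the fit of 17 libraries they enter through the estimate of the spread, and also through the TMM factors, the CPM and the choice of genes tested. That fit tested 15280 genes, against 13846 in the 9 aged libraries alone. The fit of the 9 aged libraries alone is given beside that of the 17. Total counts of the 9 libraries ran from 15237626 to 21378026.

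Within the 9, some libraries stood apart. PoWeR 12 held the highest level of 21.7% of genes tested and sedentary 16 that of 14.7%. PoWeR 12 was highest for 12 of 12 Schwann cell and myelin markers, 12 of 13 adipocyte markers, 11 of 12 fibro-adipogenic progenitor markers, 12 of 14 macrophage markers and 9 of 9 mast cell markers. Sedentary 16 was highest for 13 of 13 T and B cell markers, and PoWeR 15 for 8 of 16 endothelial markers. Where leaving out such a library moved a described value most, the value without it is given beside it.

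A small set of 4 genes changed with PoWeR: Tjp1 and Mecom rose, and Gpr157 and the antisense RNA B430218F22Rik fell. They are 4 of 15280 genes tested (0.0262% called, 0.0131% in each direction) at a Benjamini-Hochberg adjusted p under 0.05 in edgeR's quasi-likelihood test. At an unadjusted p under 0.05 stood 9.86% of genes, 6.01% higher and 3.85% lower with PoWeR. In the 9 aged libraries alone edgeR called 0 of 13846 genes (0% called; 1214 genes, or 8.77%, at an unadjusted p under 0.05), and DESeq2 called 59. DESeq2 on the 17 libraries called 119, of which 79 were higher and 40 lower with PoWeR. Of the 119, 43 had their highest level in PoWeR 12 and 10 in sedentary 16. The groups did not overlap for 79 of the 119, beside 3.02% of the genes tested with edgeR. The 119 were called from the same libraries, so their higher share follows from that choice and is no support for the calls.

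The sequences just upstream of the RefSeq starts of the called coding genes are shown because these genes carry the comparison. They come from the RefSeq promoter table of build GRCm38.p6, cover up to 250 bases and stop before any GENCODE exon, and run 5′ to 3′ on the gene's strand with GC boxes (GGGCGG or its reverse complement) in capitals. The Tjp1 window is chr7:65371245-65371494 on the minus strand, inside the span of the longer Tjp1 transcripts. The Mecom window is chr3:30509823-30510009 on the minus strand, before the more upstream of 2 RefSeq starts. It too lies inside the annotated span of its gene, which reaches 30548008. The Gpr157 window is chr4:150087253-150087364 on the plus strand.
Tjp1: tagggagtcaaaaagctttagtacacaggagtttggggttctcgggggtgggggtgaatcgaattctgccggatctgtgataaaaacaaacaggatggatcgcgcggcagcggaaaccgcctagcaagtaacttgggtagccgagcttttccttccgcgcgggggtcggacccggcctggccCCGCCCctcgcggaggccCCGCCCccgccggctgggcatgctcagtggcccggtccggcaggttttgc
Mecom: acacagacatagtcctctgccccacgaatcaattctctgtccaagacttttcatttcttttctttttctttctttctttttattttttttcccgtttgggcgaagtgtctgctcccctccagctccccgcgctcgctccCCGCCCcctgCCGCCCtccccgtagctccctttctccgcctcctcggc
Gpr157: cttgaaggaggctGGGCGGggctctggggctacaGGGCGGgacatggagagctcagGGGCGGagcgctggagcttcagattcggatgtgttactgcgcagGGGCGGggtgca
Over their full 250 bases the 3 windows held 2, 2 and 7 GC boxes, a motif present in 33% of the windows of 27025 genes. None of the 3 windows held TATAAA (13% of windows), CACGTG (6.04%) or CCGGAAG (7.07%) on either strand. GC content was 63.2% for Tjp1, 50.8% for Mecom and 67.2% for Gpr157, beside a median of 52% over all windows. The 2 genes that rose and the gene that fell thus shared the GC box, which is common in mouse promoters.

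Tjp1 encodes ZO-1, the scaffold that links tight junctions to actin (mm10 chromosome 7, 65296165 to 65527781, minus strand). Its level was 29.5, 28.2, 26.9 and 29.5 CPM in PoWeR 10, 12, 14 and 15, against 16.4, 13.2, 12.7, 20.4 and 17.8 CPM in sedentary 12 to 16. The groups did not overlap, and the 4 PoWeR libraries lay closer together (SD 1.24 CPM) than the sedentary ones (SD 3.2 CPM). The log2 fold change was 0.83 ± 0.12 (SE), with an edgeR adjusted p of 0.0277 over all genes.

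Mecom encodes the zinc finger transcription factor EVI1, known from blood stem cells and from endothelium (chromosome 3, 29951296 to 30548008, minus strand). It stood at 7.3, 8.53, 10.9 and 8.84 CPM in PoWeR libraries, against 5.13, 3.82, 4.24, 4.67 and 5.19 CPM in sedentary libraries. Every PoWeR library lay above every sedentary one, and the log2 fold change was 0.95 ± 0.17 with an edgeR adjusted p of 0.0477. The span of Mecom holds other annotated genes, among them the antisense Mecomos, whose reads cannot be told apart where the exons coincide, since the strand setting of the counting is not given in the sources used here.

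Gpr157, an orphan receptor coupled to G proteins, was measured at 42.5, 36.3, 53.0 and 43.2 CPM in PoWeR libraries, against 105, 92.4, 89.8, 68.6 and 64.0 CPM in sedentary libraries. The groups did not overlap, though sedentary 15 and 16 lay nearest to the PoWeR libraries. The log2 fold change was -0.94 ± 0.15, with an edgeR adjusted p of 0.0288.

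B430218F22Rik is an antisense RNA (chromosome 13, 118386630 to 118388124, plus strand). It overlaps Mrps30 on the minus strand (118378381 to 118387252), a gene of the mitochondrial ribosome. Where the spans coincide, from 118386630 to 118387252, its reads and those of Mrps30 cannot be told apart here. B430218F22Rik had 3, 6, 1 and 0 counts in PoWeR libraries, against 12, 56, 33, 45 and 29 counts in sedentary libraries. Summed, 10 counts stood against 175, and the ratio of PoWeR to sedentary was 0.0682 (0.0321 to 0.128, exact 95% interval of counting error only) after scaling to library totals. The edgeR adjusted p was 0.0339.

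The calls depended on single libraries and on the libraries in the fit. With each of the 9 left out in turn, Tjp1 and Gpr157 stayed called in 4 of 9 fits: those without PoWeR 14, sedentary 12, sedentary 15 and sedentary 16. B430218F22Rik stayed called in 2 of 9 (without sedentary 12 or 16) and Mecom in 1 of 9 (without sedentary 16), and no fit turned a direction. The adjusted p ranged over these fits from 0.00437 to 0.119 for Tjp1, from 0.0336 to 0.129 for Mecom, from 0.0107 to 0.119 for Gpr157 and from 0.0117 to 0.119 for B430218F22Rik. In the 9 aged libraries alone each of the 4 had an adjusted p of 0.228, with log2 fold changes of 0.82, 0.94, -0.94 and -3.8.

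**Figure D1:**
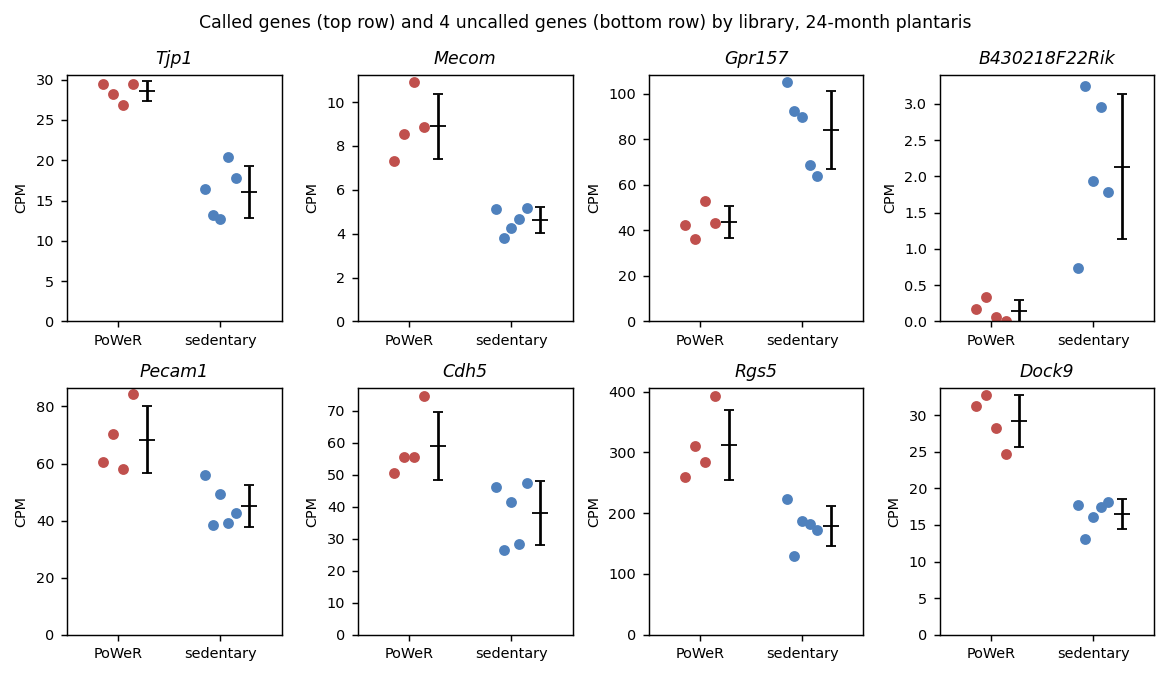
Levels in CPM (linear axes from 0) of the 4 called genes and of Pecam1, Cdh5, Rgs5 and Dock9, which were not called, in 4 PoWeR and 5 sedentary libraries of 24-month plantaris. Points are libraries and the bars beside them are mean and SD; in each of the 8 panels the groups do not overlap.

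Beyond the called genes, 257 genes (1.68% of those tested) were higher in all 4 PoWeR libraries than in all 5 sedentary ones, and 205 (1.34%) were lower, so that 3.02% of genes had groups without overlap. The endothelial list was among those with most such members. All 16 endothelial markers tested had a fold change above 0, with a median log2 fold change of 0.55 beside 0.01 over all genes tested, and 13 of the 16 had an unadjusted p under 0.05 (background 6.01%). None of the 16 was called. Over all genes tested, 7953 of 15280 had a fold change above 0 and 7317 below 0. The list was chosen with earlier results of these data known, so these counts are no test of it. The median was 0.54 in the 9 aged libraries alone, 0.47 to 0.66 with any 1 library left out, and 0.46 without both PoWeR 12 and sedentary 16. In whole muscle, more cells of a type and more RNA per cell cannot be told apart.

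Pecam1 (CD31), an adhesion molecule of the endothelial surface, was 60.7, 70.2, 58.2 and 84.2 CPM in PoWeR libraries, against 56, 38.3, 49.4, 39.2 and 42.8 CPM in sedentary libraries (log2 fold change 0.60 ± 0.14, edgeR adjusted p 0.128). Cdh5, the cadherin of endothelial adherens junctions, was 50.6, 55.4, 55.4 and 74.7 CPM against 46.1, 26.5, 41.4, 28.3 and 47.5 CPM in sedentary libraries (0.64 ± 0.18, edgeR adjusted p 0.215). The groups did not overlap for either gene, and PoWeR 15 was the highest library for both. Emcn, the endothelial sialomucin endomucin, named after its values were seen, was the other endothelial marker without overlap, at 7.56 to 8.27 CPM in PoWeR and 2.66 to 6 CPM in sedentary libraries. Erg, an endothelial transcription factor, and Cldn5, the endothelial claudin, had log2 fold changes of 0.80 ± 0.20 and 0.90 ± 0.22 with overlapping groups (edgeR adjusted p 0.152 and 0.163).

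Pericyte and smooth muscle genes had a like pattern. Of 12 tested, 10 had a fold change above 0, 8 had an unadjusted p under 0.05 in that direction, none was called, and the median log2 fold change was 0.59. Rgs5, a regulator of G-protein signalling typical of pericytes, was 260, 310, 284 and 393 CPM in PoWeR libraries, against 223, 130, 187, 183 and 173 CPM in sedentary libraries (0.80 ± 0.17, edgeR adjusted p 0.0913). Pdgfrb, the receptor through which pericytes are recruited, was 23.2, 25.2, 22.9 and 25.1 CPM against 17.4, 10.6, 16.5, 14.9 and 12.6 CPM in sedentary libraries (0.74 ± 0.20, edgeR adjusted p 0.203). Kcnj8, a subunit of the potassium channel of mural cells, and Mcam (CD146) also had groups that did not overlap. Mcam had a log2 fold change of 0.67, and of 0.36 without PoWeR 12. Thus 4 of the 12 pericyte and smooth muscle members had no overlap, against 1.68% of all genes. The smooth muscle members Acta2, Myh11, Tagln, Cnn1 and Lmod1 were not among the 4. Log2 fold changes in the list ran from -0.70 to 1.06. Without PoWeR 12 the median of this list was 0.38, the lowest of the leave-one-out range of 0.38 to 0.72.

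Counts of members without overlap were also taken with doubted libraries left out. Of the 16 endothelial markers, 3 were higher without overlap in all 9 libraries, 5 without PoWeR 12, 4 without PoWeR 15, 5 without sedentary 16 and 7 without PoWeR 12 and sedentary 16. The background over all genes was 1.68, 2.72, 2.48, 2.47 and 4.06% in the same order. The summed endothelial level was 405 to 525 CPM in PoWeR and 265 to 406 CPM in sedentary libraries, with sedentary 12 at 406 CPM just above PoWeR 10 at 405 CPM. The summed pericyte and smooth muscle level was 652 to 793 CPM in PoWeR and 418 to 573 CPM in sedentary libraries, without overlap. Rgs5 alone, itself without overlap, made up 260 to 393 CPM of that sum in PoWeR and 130 to 223 CPM in sedentary libraries. The sum thus leans on that gene and does not stand apart from it. No endothelial marker was at 0 in any library, and Cnn1, of smooth muscle, was at 0 in at least 1. Whether a changed amount of vessel in the dissected samples underlies these values was not tested.

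Of 13 junction and polarity genes tested, 1 was called, Tjp1 (background 0.0131% called higher). The list was chosen with earlier results of these data known, so its holding a called gene is no test of the list. Tjp1 and Cdh5, 2 of the 13, were higher without overlap (background 1.68%), and Cdh5 is counted in the endothelial list too. That count was 4 without PoWeR 12, 3 without PoWeR 15, 4 without sedentary 16 and 5 without PoWeR 12 and sedentary 16, beside 2.72, 2.48, 2.47 and 4.06% of all genes. Of the 13, 11 had a fold change above 0, with a median log2 fold change of 0.28. Afdn, which encodes afadin, an actin-binding partner of nectins, was 42.4 to 59.5 CPM in PoWeR and 24.8 to 43.6 CPM in sedentary libraries (0.73 ± 0.17, edgeR adjusted p 0.128). Only sedentary 16 reached into the PoWeR range, and edgeR called Afdn when that library was left out.

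Among 16 angiogenic factors and receptors, 15 had a fold change above 0 and Vegfa did not (median log2 fold change 0.41, none called). Kdr and Tek are also members of the endothelial list, so both lists partly count the same genes. Vegfa, the main growth factor for endothelium, was 170, 163, 247 and 209 CPM in PoWeR libraries and 284, 194, 285, 272 and 170 CPM in sedentary libraries, and the groups overlapped (-0.29 ± 0.15, edgeR adjusted p 0.553). Its receptor Kdr (0.41 ± 0.16), the angiopoietin Angpt2 (1.20 ± 0.39), the angiopoietin receptor Tek (0.41 ± 0.16) and the apelin receptor Aplnr (1.09 ± 0.39) had overlapping groups as well. Angpt2 and Aplnr lay between 0.618 and 6.52 CPM in the 9 libraries.

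**Figure D2:**
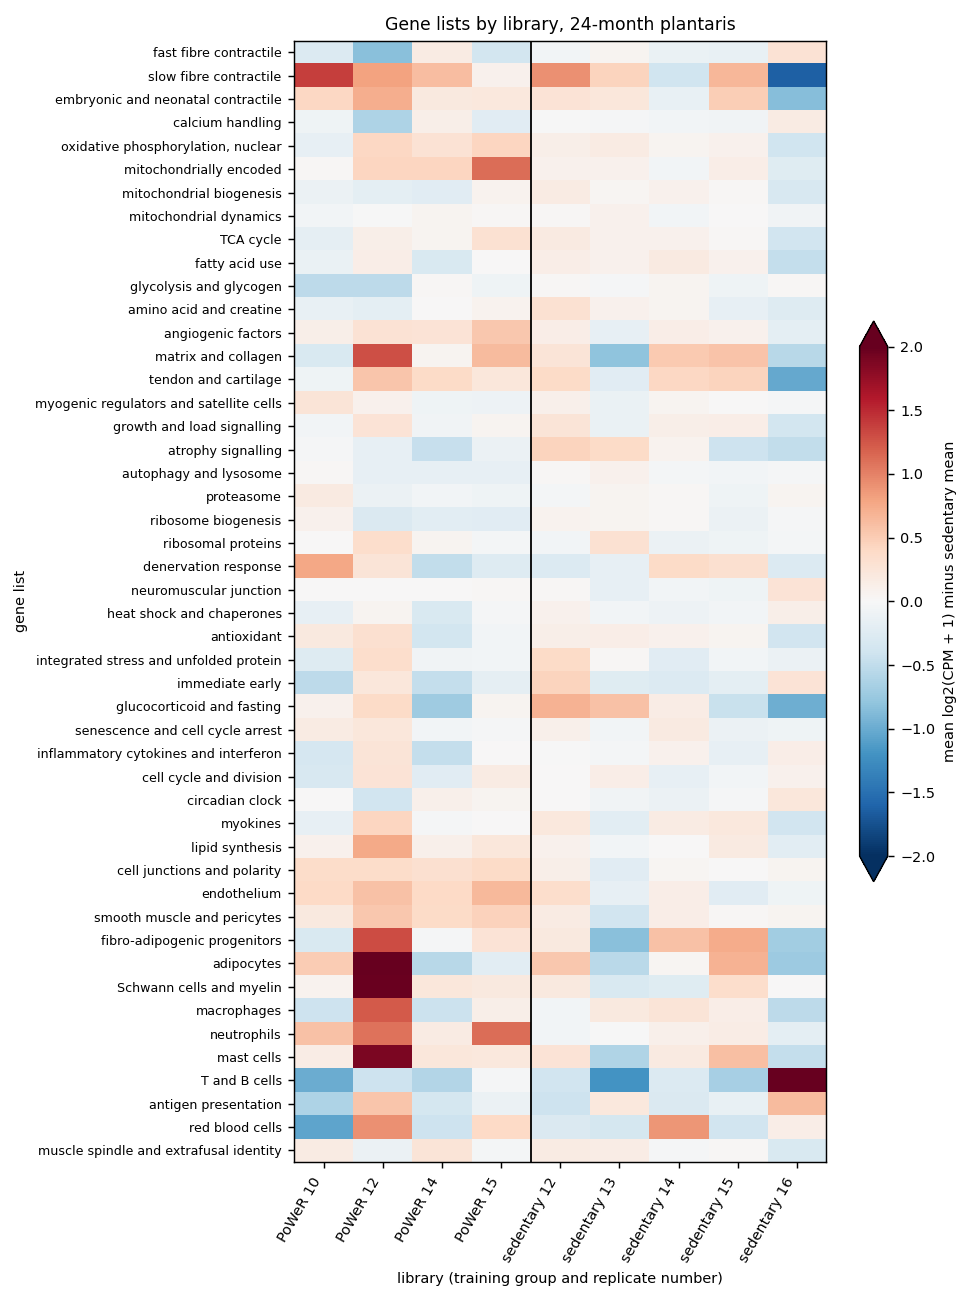
Mean log2(CPM + 1) of each of 48 gene lists (down) in each of the 9 libraries (across), as the difference from the mean of the sedentary libraries. The 4 PoWeR libraries are left of the line. Colours stop at 2 on either side, which PoWeR 12 passes for adipocytes and sedentary 16 for T and B cells. Endothelium, pericytes with smooth muscle, and junctions are above 0 in all 4 PoWeR libraries. So are other lists, among them Schwann cells (0.07 to 1.97), mast cells and mitochondrially encoded genes. Endothelium is at 0.35 in sedentary 12 beside 0.40 in PoWeR 10.

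The uncalled genes with the smallest p and no overlap, 10 in each direction, all had edgeR adjusted p between 0.084 and 0.146. On the higher side stood Nrp2, a co-receptor for vascular growth factors and semaphorins, at 11.9 to 15 CPM in PoWeR and 6.59 to 9.94 CPM in sedentary libraries. Efnb2, the ephrin that marks arterial endothelium, was at 8.7 to 11.6 CPM in PoWeR and 2.31 to 6.3 CPM in sedentary libraries. Dock9, an activator of the small GTPase Cdc42, was at 24.7 to 32.7 CPM in PoWeR and 13.1 to 18.2 CPM in sedentary libraries. The log2 fold changes of these 3 were 0.76 ± 0.15, 0.99 ± 0.21 and 0.82 ± 0.15.

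C1qtnf9, a secreted relative of adiponectin, was at 15.9 to 19.9 CPM in PoWeR and 8.15 to 12.2 CPM in sedentary libraries. Lrrn1, a transmembrane protein with leucine-rich repeats, was at 21.3 to 29.6 CPM in PoWeR and 10.6 to 18.9 CPM in sedentary libraries. Rgs4, a relative of Rgs5, was at 6.07 to 9.43 CPM in PoWeR and 3.53 to 5.63 CPM in sedentary libraries. The splicing regulator Ptbp3, the ubiquitin ligase Rnf144a and Rassf9 completed the higher side with Rgs5, at log2 fold changes of 0.75 ± 0.16, 1.01 ± 0.22 and 1.08 ± 0.24 for the first 3.

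On the lower side, Mylk2, the kinase of skeletal muscle myosin light chains, was 694, 509, 910 and 624 CPM in PoWeR libraries, against 1162, 1361, 943, 941 and 1453 CPM in sedentary libraries (-0.78 ± 0.16, edgeR adjusted p 0.0913). PoWeR 14 lay close under the lowest sedentary library, and edgeR called Mylk2 when PoWeR 14 was left out. Nfatc1, a transcription factor activated by calcineurin, was at 37.7 to 44.3 CPM in PoWeR and 49.6 to 68.4 CPM in sedentary libraries (-0.59 ± 0.14). Phlda3, a p53 target that restrains Akt, was at 182 to 255 CPM in PoWeR and 317 to 415 CPM in sedentary libraries (-0.74 ± 0.18).

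Clu, the secreted chaperone clusterin, was at 30.1 to 44.7 CPM in PoWeR and 48.2 to 65 CPM in sedentary libraries (-0.63 ± 0.15). Tubb4b, a beta-tubulin, was at 143 to 204 CPM in PoWeR and 208 to 289 CPM in sedentary libraries (-0.57 ± 0.13). Nr2f6, an orphan nuclear receptor, was at 15.5 to 18.8 CPM in PoWeR and 23.2 to 25 CPM in sedentary libraries, a narrow range in both groups (-0.52 ± 0.11). The remaining lower genes were Mocs3 of molybdenum cofactor synthesis (-0.87 ± 0.16), the RNA-binding Samd4 (-0.55 ± 0.11), the adaptor Shc2 (-1.01 ± 0.23) and the lipase Daglb (-0.50 ± 0.12).

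The share of each adult myosin heavy chain in the summed counts of Myh7, Myh2, Myh1 and Myh4 was compared by exact two-sided permutation tests, whose smallest p with 4 against 5 libraries is 0.0159. The 4 transcripts are of like length (6016 to 6230 bases for the longest of each), and reads of these close paralogs can be assigned to the wrong member, so the shares are uncertain to that extent. The Myh4 share was 64.7, 32.5, 60.4 and 41.6% in PoWeR libraries, against 68.4, 62.6, 68.5, 65.4 and 81.9% in sedentary libraries. Its mean was 49.8 ± 15.3% (SD, n = 4) with PoWeR and 69.4 ± 7.43% (n = 5) without, a difference of -19.6 percentage points (exact permutation p = 0.0317, adjusted over 5 shares 0.0529). The difference in the Myh4 share was -13.8 points without PoWeR 12 and -10.7 points without PoWeR 12 and sedentary 16.

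The Myh1 share was 25.1, 41.8, 31 and 42.6% in PoWeR libraries, against 19.9, 27.5, 21.8, 23 and 15.9% in sedentary libraries. The difference was 13.5 percentage points (exact permutation p = 0.0317, adjusted 0.0529) and was 9.86 points without PoWeR 12 and sedentary 16. Neither share passed the test after adjustment. PoWeR 12 and 15 held the lowest Myh4 shares of the 9, while PoWeR 10 and 14 lay within or at the edge of the sedentary range. Myh2, the IIa chain, was 13.8 ± 7.91% with PoWeR and 8.42 ± 3.56% in sedentary libraries (exact permutation p = 0.238). The difference in the Myh2 share, 5.38 points, was 1.87 points without PoWeR 12 and 0.304 points without PoWeR 12 and sedentary 16. Myh7 was 1.33 ± 0.991% with PoWeR and 0.612 ± 0.504% in sedentary libraries (exact permutation p = 0.222), and the difference in the Myh7 share, 0.716 points, was 0.266 points without PoWeR 10.

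Of 15 contractile genes of fast fibres, 13 had a fold change below 0, with a median log2 fold change of -0.25 and none called. Atp2a1, the calcium pump of fast fibres, was 28147, 13958, 33886 and 24194 CPM in PoWeR libraries, against 35105, 33775, 32005, 28138 and 36623 CPM in sedentary libraries. PoWeR 12 was the lowest, and without it the list's median was -0.11, against -0.45 without PoWeR 14 and -0.13 without sedentary 16. Of 14 slow fibre genes, 12 had a fold change above 0, with a median of 0.59, which was 0.17 without PoWeR 10, 0.32 without sedentary 16 and 0.92 without sedentary 12. Sln, sarcolipin, an inhibitor of the calcium pump, was 35.5, 71.4, 4.39 and 2.64 CPM in PoWeR and 5.01, 5.84, 12.8, 9.86 and 1.11 CPM in sedentary libraries. Its 2 high values, PoWeR 10 and 12, stood beside 2 PoWeR values inside the sedentary range, and its log2 fold change of 2.04 was 1.03 without PoWeR 12.

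**Figure D3:**
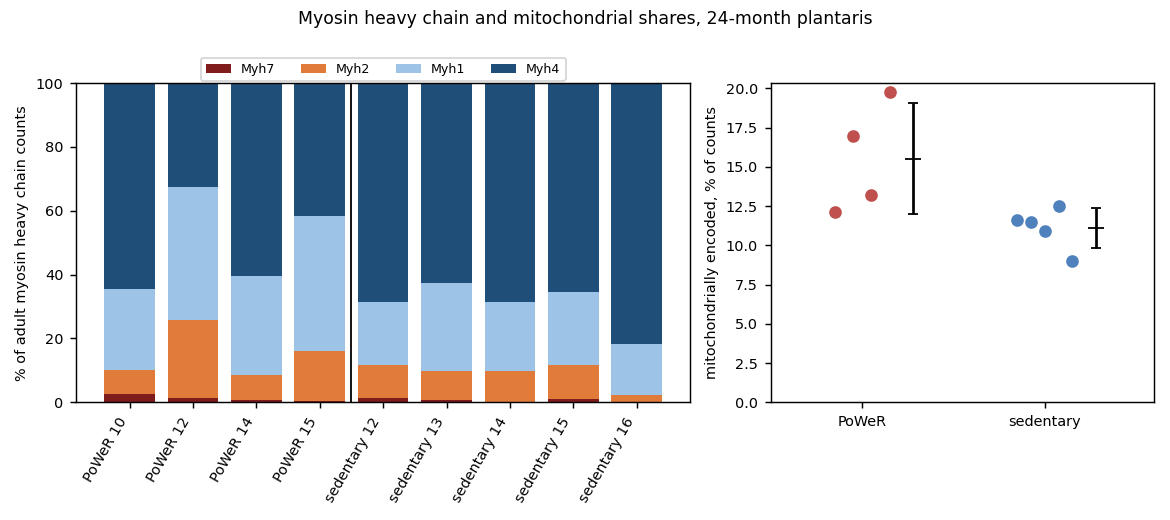
Left, the share in percent of Myh7, Myh2, Myh1 and Myh4 in their summed counts, 1 bar per library, PoWeR left of the line. Right, counts of the 13 mitochondrially encoded protein genes as percent of the library total, with mean and SD beside the points; PoWeR 12 and 15 are highest, and sedentary 15 (12.5%) lies above PoWeR 10 (12.1%).

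Genes of oxidative metabolism were mostly higher with PoWeR, and none was called, beside 0.0262% of all genes. The 13 protein genes of the mitochondrial genome took 12.1, 17, 13.2 and 19.8% of all counts in PoWeR libraries, against 11.6, 11.5, 10.9, 12.5 and 9.02% in sedentary libraries. The mean was 15.5 ± 3.53% with PoWeR and 11.1 ± 1.3% in sedentary libraries, a difference of 4.41 percentage points (exact permutation p = 0.0317, adjusted 0.0529) that was 2.99 points in the mitochondrially encoded share without PoWeR 15. All 13 had a fold change above 0 (median 0.49), and 8 had an unadjusted p under 0.05 (background 6.01%). The list's mean log2(CPM + 1), less the sedentary mean, was 0.03 in PoWeR 10, below the 0.13 of sedentary 15. It was 0.43, 0.43 and 1.12 in PoWeR 12, 14 and 15. Without PoWeR 15, the library with the highest share, the median was 0.30. mt-Atp8, of ATP synthase, was 132, 203, 224 and 488 CPM in PoWeR libraries, against 93.6, 126, 124, 143 and 118 CPM in sedentary libraries (1.11 ± 0.29, edgeR adjusted p 0.188, and 0.62 without PoWeR 15).

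Of 33 nuclear genes of oxidative phosphorylation, 32 had a fold change above 0, with a median of 0.24. PoWeR 10 went the other way: the list's mean log2(CPM + 1), less the sedentary mean, was -0.16 there. It was 0.41, 0.29 and 0.43 in PoWeR 12, 14 and 15. The median was 0.15 without sedentary 16 and 0.10 without PoWeR 12 and sedentary 16. Cox7b, a subunit of cytochrome oxidase, was 231, 509, 319 and 356 CPM in PoWeR libraries, against 231, 278, 241, 252 and 169 CPM in sedentary libraries (0.60 ± 0.21, edgeR adjusted p 0.333, and 0.37 without PoWeR 12). Ndufa4, another cytochrome oxidase component, was 281 to 523 CPM in PoWeR and 210 to 309 CPM in sedentary libraries (0.48 ± 0.18, and 0.27 without PoWeR 12). Ppargc1a, the coactivator that drives mitochondrial biogenesis, was 34.7, 37.7, 32.3 and 61.2 CPM in PoWeR and 83.6, 43.8, 58.8, 59.9 and 44.4 CPM in sedentary libraries (-0.49 ± 0.29, edgeR adjusted p 0.599, and -0.32 without sedentary 12). The 14 genes of mitochondrial biogenesis had a median log2 fold change of -0.04.

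Of 22 genes of glycolysis and glycogen, 20 had a fold change below 0 (median -0.28), 5 of them at an unadjusted p under 0.05, where the background on the lower side was 3.85%. The median was -0.15 without PoWeR 10 and -0.14 without PoWeR 12 and sedentary 16. Fbp2, the muscle fructose bisphosphatase, was 22.8, 15.9, 45.8 and 27.7 CPM in PoWeR libraries, against 57.3, 66.1, 57.6, 45.9 and 88.2 CPM in sedentary libraries (-1.17 ± 0.28, edgeR adjusted p 0.163). The groups did not overlap, although PoWeR 14 at 45.8 CPM and sedentary 15 at 45.9 CPM nearly met. Pfkm, the phosphofructokinase of muscle (-0.47 ± 0.16), and Pygm, the glycogen phosphorylase (-0.52 ± 0.19, and -0.34 without PoWeR 12), had overlapping groups. Gbe1, the glycogen branching enzyme, went the other way without overlap, at 123 to 193 CPM in PoWeR and 93.1 to 117 CPM in sedentary libraries (0.39 ± 0.13, edgeR adjusted p 0.308, and 0.21 without PoWeR 15).

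The 24 genes of fatty acid use had a median of -0.01, with 12 above and 12 below 0. Mlycd, the malonyl-CoA decarboxylase, was 130, 84.3, 80 and 81.6 CPM in PoWeR and 149, 167, 161, 128 and 116 CPM in sedentary libraries. Ucp3, the uncoupling protein of muscle, was 106, 138, 56.8 and 172 CPM in PoWeR and 303, 262, 270, 137 and 181 CPM in sedentary libraries. Cpt1b, the carnitine palmitoyltransferase of muscle, was 235, 249, 275 and 285 CPM in PoWeR and 358, 338, 322, 277 and 269 CPM in sedentary libraries. These were the 3 members with the smallest p, and all had overlapping groups, with log2 fold changes of -0.62 ± 0.18, -0.96 ± 0.31 and -0.26 ± 0.12 and edgeR adjusted p of 0.215, 0.314 and 0.493. Pdk4, of the TCA cycle list and the glucocorticoid and fasting list, encodes the kinase that shuts pyruvate dehydrogenase in fasting. It was 1248, 2133, 465 and 1418 CPM in PoWeR and 3719, 3391, 2833, 1433 and 1201 CPM in sedentary libraries. Its groups overlapped as well (-0.93 ± 0.42, edgeR adjusted p 0.49). Fasn, the fatty acid synthase, had no overlap at 11, 58.3, 13.8 and 21.9 CPM in PoWeR and 5.78 to 9.86 CPM in sedentary libraries, and its log2 fold change of 1.69 ± 0.47 was 0.94 without PoWeR 12.

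Growth, atrophy and stress genes gave no calls, and neither did most lists. With 0.0262% of all genes called, 47 of the 48 lists had no called member. Trim63, a ubiquitin ligase of muscle atrophy, stood at 201 to 475 CPM in PoWeR and 187 to 845 CPM in sedentary libraries. Fbxo32, another such ligase, stood at 590 to 1915 CPM in PoWeR and 773 to 1503 CPM in sedentary libraries. Mstn, myostatin, the inhibitor of muscle growth, was at 17.3 to 62.8 CPM in PoWeR and 38 to 90.9 CPM in sedentary libraries. All of these overlapped widely. Pax7, the satellite cell factor, was at 0.465 to 2 CPM in PoWeR and 0.231 to 1.55 CPM in sedentary libraries. Its groups overlapped too, and 13 of 14 atrophy genes had a fold change below 0 with a median of -0.17, which was -0.09 without PoWeR 12 or without sedentary 13 and -0.11 without PoWeR 14.

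Denervation-type genes varied within both groups. Runx1, a factor raised in denervated fibres, was 11.5, 9.62, 1.96 and 4.45 CPM in PoWeR libraries and 3.65, 4.11, 15.9, 8.48 and 2.91 CPM in sedentary libraries. Gadd45a was 107, 35.9, 20.2 and 29.6 CPM in PoWeR libraries and 27.6, 33.8, 87.3, 52.6 and 38.3 CPM in sedentary libraries. PoWeR 10 and sedentary 14 thus held the highest value of both genes in their groups. Chrna1, the muscle acetylcholine receptor subunit, was at 10.5 to 36.8 CPM in PoWeR and 17.9 to 24.6 CPM in sedentary libraries, and the 12 genes of the list had a median of 0.10. That median changed sign with 1 library, to -0.25 without PoWeR 10, and was 0.33 without PoWeR 14.

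The 14 immediate early genes had a median of -0.42, which was -0.10 without sedentary 12, -0.19 without sedentary 15 and -0.54 without sedentary 14. Nr4a3, a nuclear receptor induced by exercise, was 2.71, 8.82, 2.83 and 6.1 CPM in PoWeR libraries, against 42.9, 8.1, 23.2, 11.8 and 42.4 CPM in sedentary libraries (-2.32 ± 0.61, edgeR adjusted p 0.21). Dusp1, a phosphatase of MAP kinases, was 29.1 to 50.5 CPM in PoWeR and 48.1 to 105 CPM in sedentary libraries (-0.72 ± 0.19, edgeR adjusted p 0.17). A single library crossed over in each case: PoWeR 12 lay above sedentary 13 for Nr4a3 and above sedentary 15 for Dusp1. Hspa5, the chaperone of the endoplasmic reticulum, had no overlap at 130 to 173 CPM in PoWeR and 178 to 196 CPM in sedentary libraries (-0.33 ± 0.14, edgeR adjusted p 0.462). The 18 clock genes had a median of 0.01, with Arntl at 22.8 to 41.6 CPM in PoWeR and 26 to 52 CPM in sedentary libraries.

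Several cell type lists had high medians that followed PoWeR 12. The 13 adipocyte genes had a median log2 fold change of 1.82 with it and -0.18 without it. The 12 Schwann cell and myelin genes had 1.54 with it and 0.26 without it. Mbp, the myelin basic protein, was 12, 77.4, 9.31 and 12.8 CPM in PoWeR and 5.09 to 12.9 CPM in sedentary libraries, and Fabp4, of adipocytes, was 92.9, 394, 82.5 and 116 CPM in PoWeR and 58.3 to 117 CPM in sedentary libraries. Outside PoWeR 12 the PoWeR values of both genes lay within the sedentary range. The 26 matrix and collagen genes had a median of 0.57, and 0.01 without PoWeR 12 and sedentary 16. The 12 progenitor genes had 0.30 and then -0.27, and the 14 macrophage genes 0.27 and then -0.49. Fat, nerve or connective tissue carried into PoWeR 12 with the muscle was not tested.

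Neutrophil genes were near the limit of detection: 4 of 11 were tested, and S100a8 was 1.24, 3.66, 0.27 and 2.48 CPM in PoWeR and at most 0.394 CPM in sedentary libraries. Their summed level was 1.75 to 13.5 CPM in PoWeR and 0.556 to 2.1 CPM in sedentary libraries, and 8 of the 10 markers in the table were at 0 in at least 1 library. T and B cell genes were high in sedentary 16, where Igkc stood at 544 CPM and Ighm at 799 CPM, beside at most 5.13 and 55.9 CPM in the other sedentary libraries. Their summed level was 21.3 to 104 CPM in PoWeR and 9.89 to 1407 CPM in sedentary libraries. The median of the list was -0.91 with sedentary 16 and 0.04 without it.

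**Figure D4:**
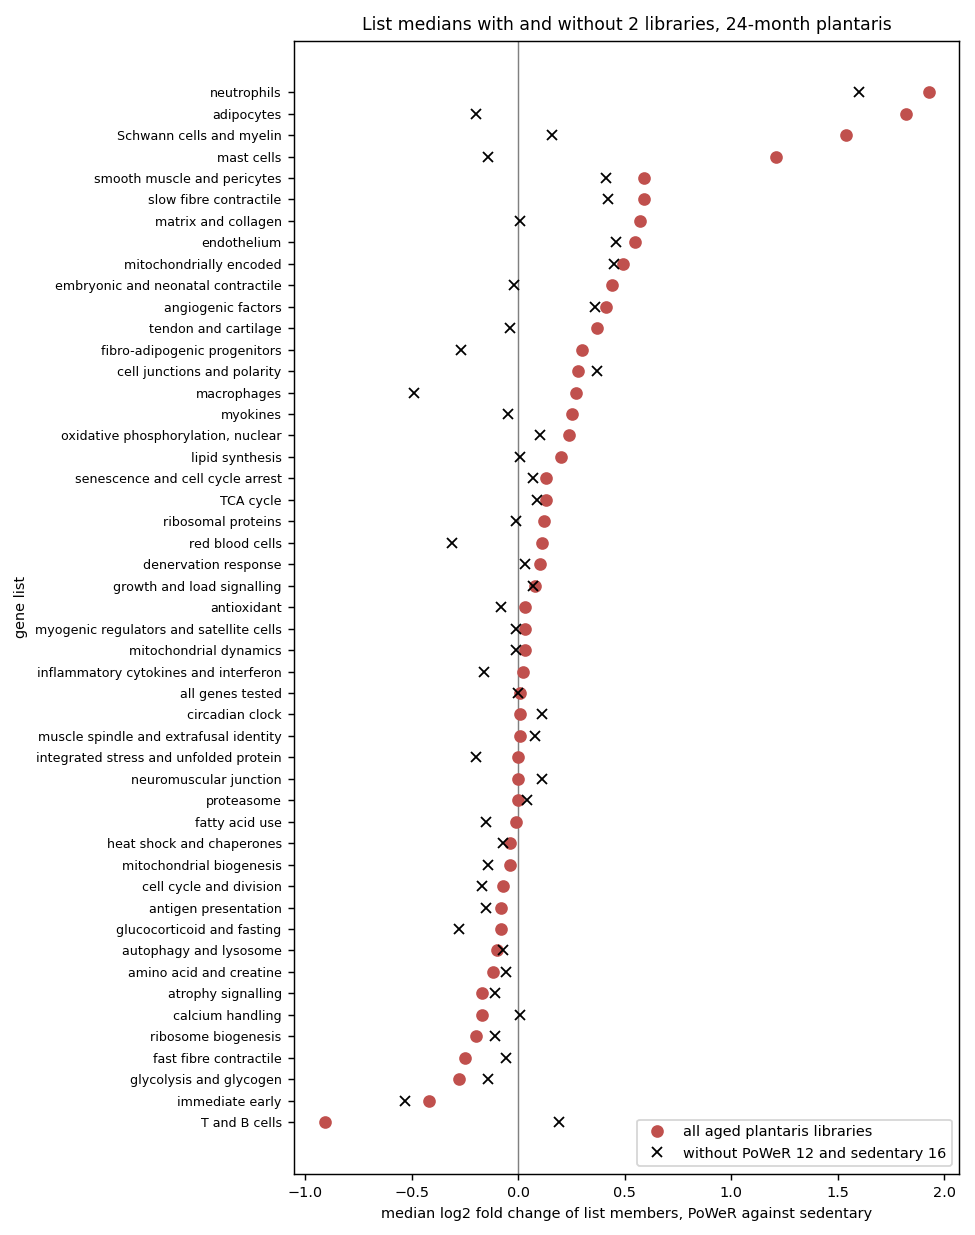
Median log2 fold change, PoWeR against sedentary, of the tested members of each of 48 lists and of all genes tested, with all aged plantaris libraries (circles) and without PoWeR 12 and sedentary 16 (crosses). The endothelial median is 0.55 and 0.46, and that of pericytes and smooth muscle 0.59 and 0.41. The adipocyte median is 1.82 and -0.20 and the Schwann cell median 1.54 and 0.16.

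The soleus of mice in the same groups allowed a test of whether the training effect differed between the muscles. In the 18 aged libraries edgeR called 0 of 14823 genes for the difference of the effects (0% called; 1785, or 12%, at an unadjusted p under 0.05). DESeq2 called 184 and limma with quality weights 30. edgeR called 3 in all 34 libraries, 2 with the replicate number as a block across the muscles, 2 without plantaris sedentary 15 and 197 without plantaris PoWeR 10, so the count moved with the tool, the libraries and the block. PoWeR changed 31 genes in the aged soleus in this fit (0.209% called).

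For Tjp1 the soleus levels were 19.9, 23, 25 and 26.9 CPM in PoWeR and 27.7, 22.3, 27.2, 25.2 and 29.2 CPM in sedentary libraries. The soleus log2 fold change was -0.15 ± 0.13, and the plantaris effect exceeded it by 0.98 ± 0.18 (edgeR adjusted p 0.116). Mecom, Gpr157 and B430218F22Rik had soleus log2 fold changes of 0.14 ± 0.17, -0.46 ± 0.19 and -1.21 ± 0.76. Lrrn1, at 0.84 ± 0.16 in plantaris and 0.77 ± 0.15 in soleus, was nearly alike in both.

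The gene with the smallest p for the difference was Dixdc1, a regulator of Wnt signalling. It was 4.06, 7.16, 5.06 and 5.84 CPM in PoWeR plantaris, against 3.28, 4.16, 4.12, 3.55 and 2.53 CPM in sedentary plantaris. In soleus it was 6.29, 5.96, 7.38 and 9.54 CPM in PoWeR libraries, against 15.6, 12.6, 11.5, 14.6 and 12.7 CPM in sedentary libraries. The effects thus had opposite signs, with a difference of 1.53 ± 0.26 (edgeR adjusted p 0.116). Beside Tjp1, the other gene on the side higher in plantaris was Gm10250, a processed pseudogene whose reads may come from its parent gene, with a difference of 0.88 ± 0.16. On the other side stood Tnip1, an inhibitor of NF-kappaB signalling (-1.02 ± 0.21), the zinc finger gene Zfp771 (-0.73 ± 0.15) and Rrp7a, of ribosome biogenesis (-0.67 ± 0.14), each at an adjusted p of 0.116.

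List medians differed in sign between the muscles for mitochondrial genes. The 13 mitochondrially encoded genes had a median log2 fold change of 0.49 in plantaris and -0.40 in soleus, and the 33 nuclear oxidative phosphorylation genes 0.24 in plantaris and -0.28 in soleus, with no member called for the difference. The endothelial median was 0.55 in plantaris and 0.17 in soleus, and that of pericytes and smooth muscle 0.59 in plantaris and -0.04 in soleus. The denervation list had 0.10 in plantaris (-0.25 without plantaris PoWeR 10) and 0.76 in soleus. Nrcam (0.37 ± 0.63), Sh2d4a (0.10 ± 0.25) and Padi2 (-0.24 ± 0.18) were not called in plantaris, and their soleus log2 fold changes were 2.60 ± 0.48, 1.30 ± 0.27 and -1.07 ± 0.16.

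**Figure D5:**
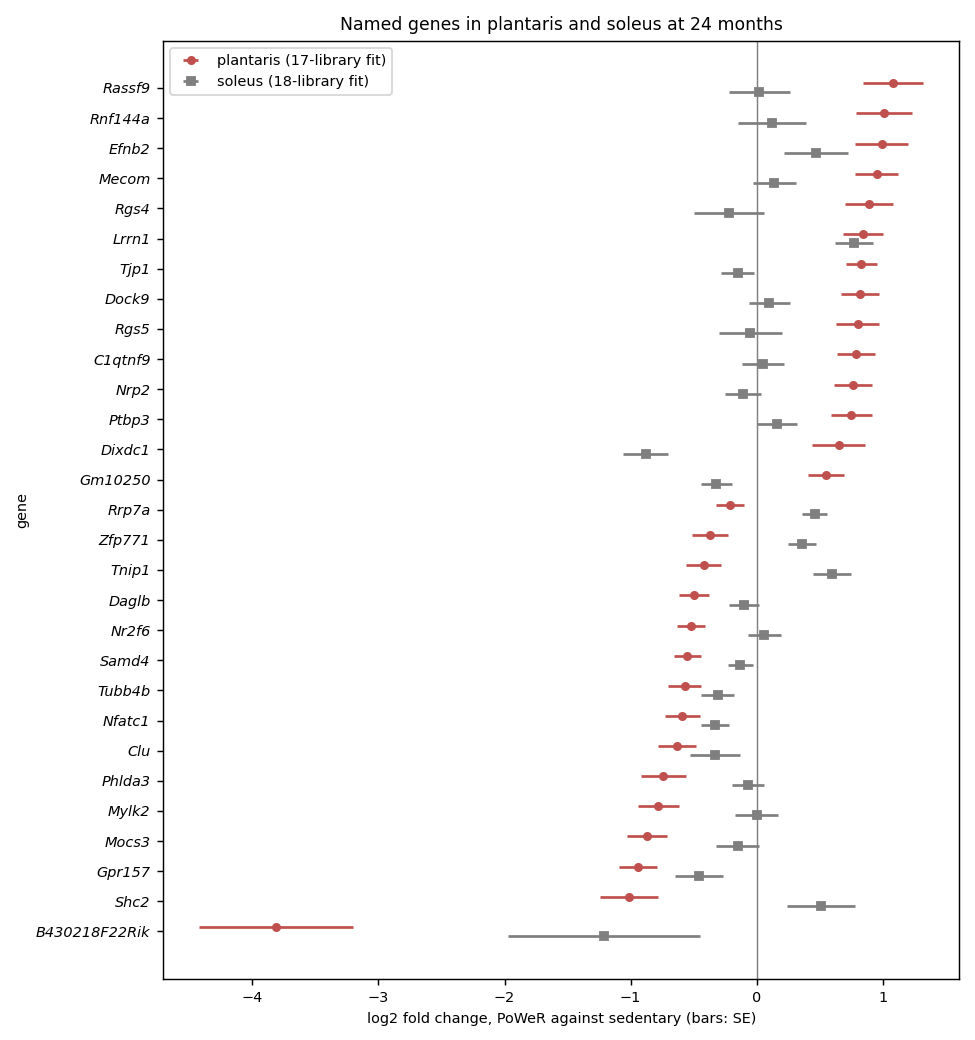
Log2 fold change with SE, PoWeR against sedentary, in 24-month plantaris (circles) and 24-month soleus (squares) for the 4 called genes, the 20 uncalled genes with the smallest p and no overlap, and the genes with the smallest p for the difference between muscles. Tjp1 stands at 0.83 in plantaris and -0.15 in soleus, and Lrrn1 at 0.84 and 0.77.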

How the data were processed

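RNA sequencing of 34 libraries was deposited as 1 table of 23011 genes. It holds expected counts, which the authors deposited without normalization; 23.2 to 27.8% of values in the 9 aged plantaris libraries are not whole. Per the submitters' processing notes, STAR 2.7.3a, Partek and DESeq2 were used with mm10; the annotation, counter and strand setting are not given in the sources used here. Coordinates come from the table, with each end reduced by 1 to match GENCODE M21.

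Expected counts were rounded. Main test: edgeR 4.0.16 (R 4.3.3), TMM, filterByExpr (minimum count 10, minimum total 15), robust quasi-likelihood F test, 17 libraries labelled plantaris in 1 fit, Benjamini-Hochberg adjustment over all genes, adjusted p under 0.05. The interaction used the 18 aged libraries. Shares were compared by exact permutation in scipy 1.17.1. Replicates differed beyond counting error, at a chi-square per degree of freedom of at least 13.58, so the spread between libraries limits precision.

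Named genes were the called genes, the 10 uncalled genes per direction with the smallest p, at least 5 CPM in a group and no overlap, up to 4 members per list by p, the highest member of each cell type list, 19 sentinels, and 3 interaction genes per direction. The members and the 48 lists (714 entries, 691 different genes, since lists can share members) were chosen with earlier results of these data known. Alternatives were DESeq2 1.42.0, limma 3.58.1, RLE factors, other filters, other sets of libraries, a replicate block and leaving out libraries. The scripts were tested on simulated data. Every sample column of the table was assigned to a library. Figures used matplotlib 3.10.9.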

Additional observations from a re-analysis of the deposited data

Results flagged for a closer look

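Each of the following values lay far from the other libraries of its own group, by Dixon's criterion at 95%. Of 184 groups of values examined (87 genes and 5 shares, PoWeR and sedentary), 23 were flagged, and chance flags about 1 in 20 groups; no cause was tested.

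PoWeR 12 stood high for genes of fat, myelin, matrix and vessel walls: Scd1, a fatty acid desaturase, at 806 CPM (57.7 to 79.6 CPM in the other PoWeR libraries), Fabp4 at 394 CPM (82.5 to 116), Dcn, the matrix protein decorin, at 538 CPM (221 to 250), Mbp at 77.4 CPM (9.31 to 12.8) and Mcam at 27.1 CPM (13.1 to 14.8). Among other PoWeR libraries, PoWeR 10 stood high for Mlycd at 130 CPM (80 to 84.3), for Zfand5, a gene of protein turnover, at 478 CPM (343 to 361) and for Mocs3 at 4.65 CPM (3.43 to 3.51). PoWeR 14 was high for Nr2f6 at 18.8 CPM (15.5 to 16) and low for Kcnj8 at 14.9 CPM (16.5 to 16.6) and Sh2d4a at 5.33 CPM (8.48 to 8.9). PoWeR 15 was high for Gbe1 at 193 CPM (123 to 127) and Ighm at 91.6 CPM (8.99 to 18.8).

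Sedentary 16 was high for antibody genes, with Igkc at 544 CPM (0.116 to 5.13 in the other sedentary libraries), Ighm at 799 CPM (7.58 to 55.9) and Jchain at 48.6 CPM (0.405 to 1.36). The same library was low for Myh2 at 1864 CPM (6651 to 8112), a Myh2 share of 2.14% of adult myosin heavy chain counts (9.37 to 10.6%), and Mocs3 at 6 CPM (7 to 7.17). Sedentary 13 was low for Efnb2 at 2.31 CPM (5.38 to 6.3) and Mcam at 5.84 CPM (11.5 to 12.7) and high for Myh1 at 19527 CPM (13857 to 15432). Sedentary 12 was high for Xirp1, a protein of stressed or repairing fibres, at 1160 CPM (421 to 602).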

How the results depend on the processing

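Against 4 genes called, DESeq2 called 119, no filter on low counts 2, the 18 aged libraries together 1 and the 9 aged plantaris libraries alone 0; limma with quality weights, RLE factors and genes of at least 5 CPM called 3 each. Leaving out each library in turn gave 0 to 10 calls in the 17-library fit, with 0 without PoWeR 10, 12 or 15 or sedentary 13 or 14 and 10 without sedentary 16; without PoWeR 12 and sedentary 16 together there were 8. Chosen after seeing the data, the 9 aged libraries gave 59 calls with DESeq2 and, with each library left out in turn, 0 with edgeR. The replicate block gave 0 calls for PoWeR against sedentary and 2 for the difference between muscles. Libraries that share number 12, 14 or 15 across the training groups had correlations of 0.166, -0.329 and -0.088 over 9524 genes. Those that share a number across the muscles had 0.024 to 0.476. Libraries of different numbers were not compared, so whether a shared number means the same animal cannot be decided from these values. For the difference between muscles, against 0 calls, DESeq2 gave 184, limma 30, all 34 libraries 3, and leaving out a library 0 to 197, with 197 without plantaris PoWeR 10 and 2 without plantaris sedentary 15. The 4 called genes kept their direction in every alternative run, though not their call. Among named genes that were not called and list medians, 43 gene values and 49 medians moved by more than the spread between libraries, most often without PoWeR 12 or with the replicate block. All 5 shares kept their direction. None had passed the threshold in the main test, and none passed it in a rerun. Leaving out libraries raises the smallest p the exact test can give, so this says little about stability. The cause of these differences was not tested. Depth limits genes of few counts, such as B430218F22Rik.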
